A study of Mus musculus with 12 samples.

Results

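The 10 genes followed here encode chains of the receptors through which interleukins signal, and their expression was read across 4 groups of mouse myeloid progenitor cells. They were taken by name from a list drawn up when earlier results of these data were known: Il4ra, Il6ra, Il6st, Il7r, Il10ra, Il10rb, Il13ra1, Il20ra, Il31ra and Il2rg. Of the 10 genes, 9 had a probe set with their symbol on the array, 1 each, among 22206 gene probe sets. Il2rg, the common gamma chain shared by the receptors for interleukin-2, interleukin-4, interleukin-7 and others, had none in the annotation used and was not analysed here.

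The cells were HoxB8 cells, a mouse line held as granulocyte-monocyte progenitors by an estrogen-dependent HoxB8 and grown with stem cell factor (SCF). Every group carried a pair of MSCV retroviral vectors, one with GFP and one with mCherry. The groups were Empty_Vector (both vectors empty), CSF3R_T618I, CEBPA_V314VW, and CSF3R_T618I with CEBPA_V314VW, called both below. Each group had 3 biological replicates, A, B and C. Cells positive for both fluorescent proteins were sorted, left for 1 week to recover, and harvested 24 hours after the estrogen that sustains HoxB8 was removed. A viral promoter drove the oncogenes in a single immortalized line, which limits what the groups model.

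Most of these chains work in pairs. A chain that binds the ligand joins a signaling chain shared by several cytokines, and Janus kinases (JAKs) bound to the chains then phosphorylate STAT transcription factors. CSF3R, the receptor for granulocyte colony-stimulating factor, belongs to the same receptor superfamily and is structurally close to gp130, the product of Il6st. T618I is an activating change near its membrane-spanning part, and V314VW lies in the DNA-binding part of the transcription factor CEBPA.

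Expression was read on Clariom S Mouse arrays as log2 values from robust multi-array average (RMA) normalization, so a difference of 1 is a doubling. Replicates of a group correlated at r = 0.987 to 0.995 over all gene probe sets. The mean of 23 background control probe sets was between 4.98 and 5.27 on the 12 arrays, and a member near that value has no well-measured level. Replicate C of CSF3R_T618I and of both were the arrays with the lowest weights in a fit that weighs arrays by their noise (0.325 and 0.486), and they had the highest background control means (5.25 and 5.27). The probe set for Csf3r rose with CSF3R_T618I by 0.70 ± 0.10 (SE), and that for Cebpa rose with CEBPA_V314VW by 0.98 ± 0.12 (adjusted p = 0.000435 and 0.000383). With both, Csf3r was 0.34 above empty vector (adjusted p = 0.0648) and Cebpa 1.18 (adjusted p = 2.52e-05). With CEBPA_V314VW alone, Csf3r changed by -0.47 ± 0.10 against empty vector (adjusted p = 0.0204). Against CEBPA_V314VW alone, Csf3r was 0.81 ± 0.10 higher with both (adjusted p = 0.000119). Both introduced genes were human, so how far the mouse probes read them was not tested. An array of a bulk culture cannot tell fewer cells with a transcript from less of it per cell.

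To see which chains moved with each oncogene, all 6 pairs of groups were compared with limma over all gene probe sets, and a gene was called at a Benjamini-Hochberg adjusted p below 0.05. With CSF3R_T618I alone, 7 of the 9 measured chains rose against empty vector, Il4ra, Il6ra, Il6st, Il7r, Il10rb, Il13ra1 and Il20ra, where 3.74% of all gene probe sets were called higher and 2.63% lower. With CEBPA_V314VW alone, 3 of 9 rose, Il6ra, Il6st and Il31ra, against 1.02% of all called higher and 0.950% lower. With both, the 7 chains raised by CSF3R_T618I rose again, against 3.16% higher and 2.30% lower. These 3 comparisons share the empty vector arrays. The median change of the 9 chains was 1.14, 0.28 and 1.79 in these comparisons, and the median over all gene probe sets was -0.012, -0.002 and -0.033.

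**Figure D1:**
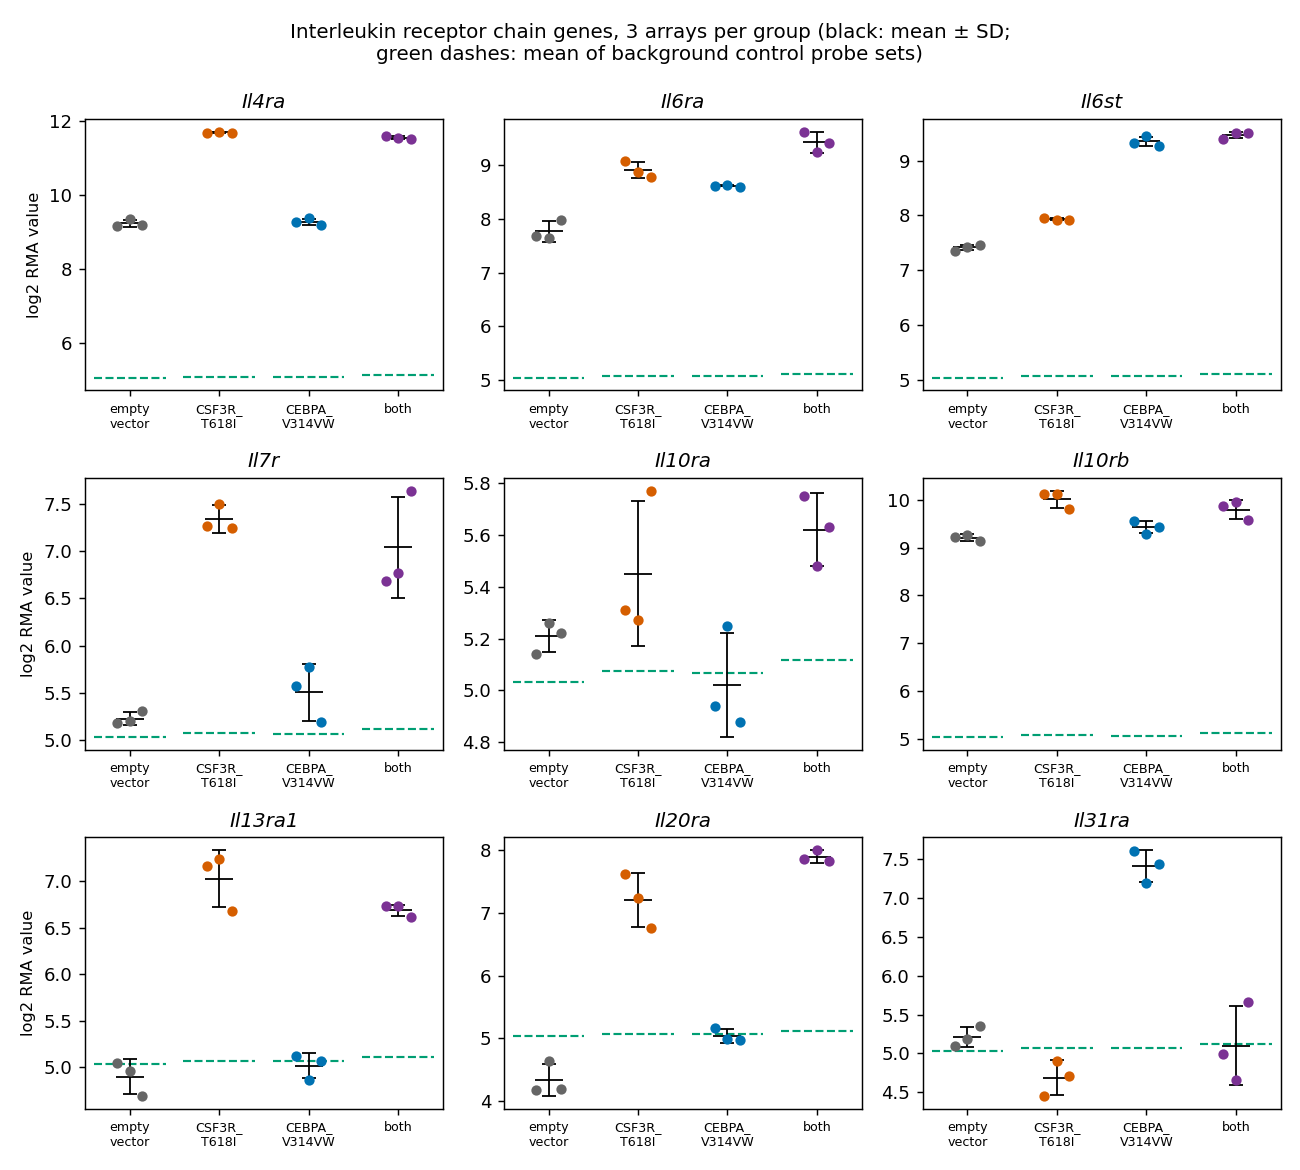
Log2 RMA value of each of the 9 measured receptor chain genes (vertical axis, scaled per gene) on the 3 arrays of each group, with the group mean and SD in black and the mean of the background controls as green dashes. Il4ra, Il7r, Il13ra1 and Il20ra were high in the groups with CSF3R_T618I, Il6st was high in those with CEBPA_V314VW, and Il31ra was high with CEBPA_V314VW alone.

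The largest changes among the interleukin-4 and interleukin-13 chains came with CSF3R_T618I. Il4ra encodes the interleukin-4 receptor alpha chain, which pairs with the common gamma chain or with the interleukin-13 receptor alpha 1 chain and signals through STAT6. Its log2 value was 9.17, 9.34 and 9.18 in the empty vector arrays and 11.69, 11.72 and 11.69 with CSF3R_T618I. It was 9.27, 9.37 and 9.20 with CEBPA_V314VW and 11.59, 11.55 and 11.52 with both. The groups thus formed a low and a high pair with no overlap between them. Il4ra was 5.55-fold higher with CSF3R_T618I than with empty vector (log2 change 2.47 ± 0.09, adjusted p = 1.06e-08) and 4.83-fold higher with both than with CEBPA_V314VW (2.27 ± 0.09, adjusted p = 1.41e-08). Between empty vector and CEBPA_V314VW it differed by 0.05 (95% interval -0.15 to 0.26, adjusted p = 0.975). Between CSF3R_T618I and both the difference was -0.15 (-0.35 to 0.06, adjusted p = 0.684), although the 3 arrays with both were all below the 3 with CSF3R_T618I.

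Il13ra1 encodes the chain that joins interleukin-4 receptor alpha to form the receptor used by interleukin-13. It read 5.05, 4.96 and 4.69 with empty vector and 5.12, 4.87 and 5.07 with CEBPA_V314VW, levels that lay at the background controls. With CSF3R_T618I it read 7.17, 7.24 and 6.68, and with both 6.73, 6.73 and 6.62. The low and the high groups did not overlap. The fitted change was 2.13 ± 0.15 for CSF3R_T618I against empty vector (adjusted p = 1.5e-06), 1.79 ± 0.15 for both against empty vector (adjusted p = 7.65e-06) and 1.67 ± 0.15 for both against CEBPA_V314VW (adjusted p = 1.18e-05). Because the low groups were at background, these changes measure the distance to background. The values with both lay within or just below those with CSF3R_T618I (difference -0.34, interval -0.67 to -0.01, adjusted p = 0.476). Il13ra2, the decoy receptor for interleukin-13, was below the background controls on all 12 arrays and was named after its values were seen.

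Il7r moved in the same way. It encodes the interleukin-7 receptor alpha chain, best known for its need in lymphocyte development and also part of the receptor for thymic stromal lymphopoietin. The log2 values were 5.18, 5.21 and 5.31 with empty vector and 5.57, 5.78 and 5.19 with CEBPA_V314VW. They were 7.27, 7.50 and 7.24 with CSF3R_T618I and 6.69, 6.77 and 7.64 with both. The high groups overlapped each other and not the low ones. The empty vector level was 0.20 above the background controls. Il7r was 2.10 ± 0.22 higher with CSF3R_T618I than with empty vector (adjusted p = 4.64e-05), 1.80 ± 0.22 with both (adjusted p = 0.000195) and 1.52 ± 0.22 higher with both than with CEBPA_V314VW (adjusted p = 0.000679). Replicate C with both stood apart at 7.64. Over all alternatives tried, the last difference was at least 1.22 and stayed past the threshold. Crlf2, the other chain of the stromal lymphopoietin receptor, had group means between 8.72 and 9.17 and was named after its values were seen.

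Il6st, Il6ra and Il31ra were the 3 followed chains that rose with CEBPA_V314VW. Il6st encodes gp130, the signaling chain shared by interleukin-6, interleukin-11, oncostatin M, leukemia inhibitory factor and interleukin-27. It read 7.36, 7.43 and 7.46 with empty vector, 7.95, 7.91 and 7.92 with CSF3R_T618I, 9.32, 9.45 and 9.27 with CEBPA_V314VW and 9.40, 9.50 and 9.50 with both. Empty vector was lowest, CSF3R_T618I lay above it without overlap, and the 2 groups with CEBPA_V314VW were highest and overlapped each other. Against empty vector Il6st was 3.82-fold higher with CEBPA_V314VW (1.93 ± 0.09, adjusted p = 2.08e-07), 4.14-fold higher with both (2.05 ± 0.09, adjusted p = 3.93e-08) and 1.42-fold higher with CSF3R_T618I (0.51 ± 0.09, adjusted p = 0.00406). The difference between both and CEBPA_V314VW was 0.12 (interval -0.08 to 0.32, adjusted p = 0.591).

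Il6st was the only measured chain called between both and CSF3R_T618I, where it was 2.91-fold higher (1.54 ± 0.09, adjusted p = 3.04e-06) and 0.748% of all gene probe sets were called higher and 0.851% lower. Il6ra was called there as well when dim probe sets were left out (adjusted p = 0.0488), with an intensity trend (0.0217) or with array weights (0.0288), and Il20ra without replicate A of CSF3R_T618I (0.0337).

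Il6ra, the ligand-binding chain of the interleukin-6 receptor, rose with each oncogene. Its values were 7.68, 7.64 and 7.99 with empty vector and 8.61, 8.63 and 8.60 with CEBPA_V314VW. They were 9.08, 8.87 and 8.79 with CSF3R_T618I and 9.63, 9.25 and 9.42 with both. No group overlapped another. The steps from empty vector were 0.84 ± 0.13 with CEBPA_V314VW (1.80-fold, adjusted p = 0.00333), 1.14 ± 0.13 with CSF3R_T618I (2.21-fold, adjusted p = 0.000105) and 1.66 ± 0.13 with both (3.17-fold, adjusted p = 4.4e-06). Both exceeded CEBPA_V314VW by 0.82 ± 0.13 (adjusted p = 0.00159). The step from CSF3R_T618I to both was 0.52 (interval 0.24 to 0.81, adjusted p = 0.0845) and that from CEBPA_V314VW to CSF3R_T618I was 0.30 (0.01 to 0.58, adjusted p = 0.215).

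Il31ra was the one member high in a single group. Its product pairs with the oncostatin M receptor chain to bind interleukin-31, a cytokine known for itch, and it is related in sequence to gp130. The log2 values were 7.60, 7.19 and 7.43 with CEBPA_V314VW. With empty vector they were 5.10, 5.18 and 5.35, with CSF3R_T618I 4.45, 4.90 and 4.71, and with both 4.99, 4.66 and 5.66. All 3 CEBPA_V314VW arrays lay above the other 9, which were near the background controls. All CSF3R_T618I arrays were not above background, so Il31ra was at least 5.04-fold higher with CEBPA_V314VW than with CSF3R_T618I (adjusted p = 2.1e-06). Against empty vector it was 4.57-fold higher (2.19 ± 0.22, adjusted p = 8.13e-05). With both, 2 of the 3 arrays were not above background, so the change from CEBPA_V314VW alone (-2.30 ± 0.22, adjusted p = 1.54e-05) measures the distance to background. Between both and empty vector the values differed by -0.11 (interval -0.58 to 0.36, adjusted p = 0.866). In the comparison of both with CEBPA_V314VW, 6 chains rose (Il4ra, Il6ra, Il7r, Il10ra, Il13ra1 and Il20ra) and Il31ra fell, where 3.56% of all gene probe sets were called higher and 3.08% lower.

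**Figure D2:**
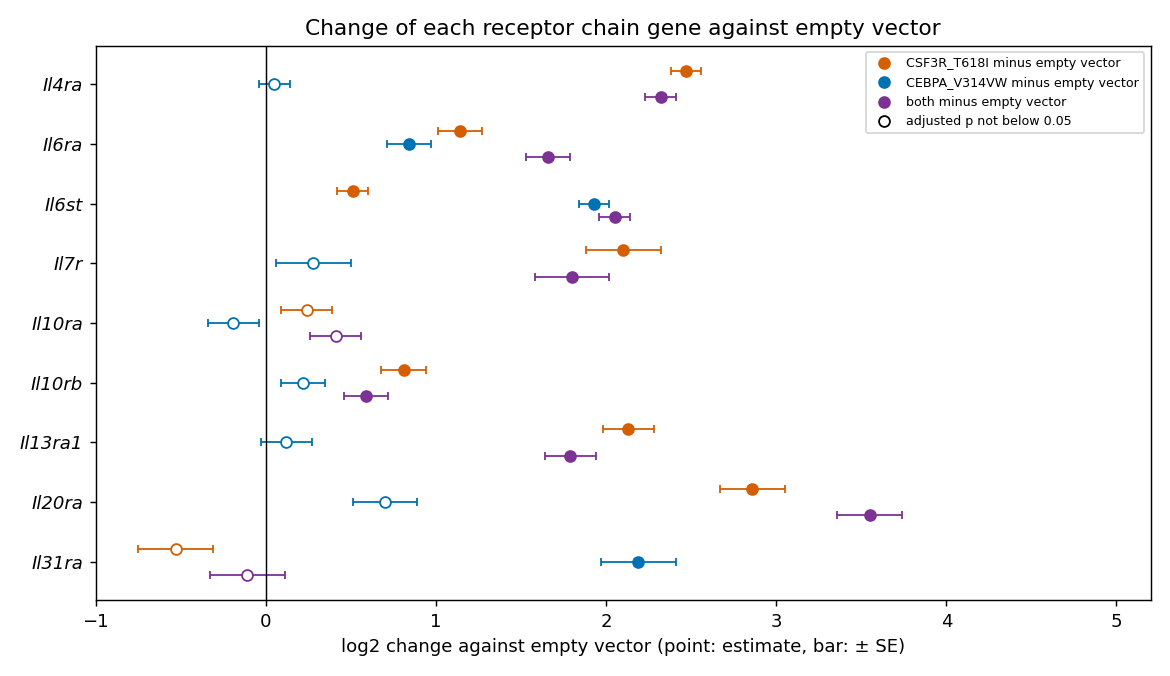
Log2 change of each chain against empty vector (horizontal axis, estimate ± SE, 3 arrays per group) with CSF3R_T618I, CEBPA_V314VW or both. Open points did not reach an adjusted p below 0.05. Il4ra stood at 2.47 and 2.32 with CSF3R_T618I and both and at 0.05 with CEBPA_V314VW, while Il31ra stood at 2.19 with CEBPA_V314VW only. The changes of Il13ra1 and Il20ra are taken from an empty vector group at or below background.

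The interleukin-10 and interleukin-20 chains belong to the class II receptors, which also bind interferons. Il20ra pairs with Il20rb for interleukin-19, interleukin-20 and interleukin-24. It read 4.18, 4.64 and 4.20 with empty vector, none above background, and 5.17, 4.99 and 4.97 with CEBPA_V314VW. It read 7.61, 7.23 and 6.76 with CSF3R_T618I and 7.85, 8.0 and 7.82 with both. The 4 groups did not overlap. Il20ra was at least 4.50-fold higher with CSF3R_T618I than with empty vector (adjusted p = 8.15e-07) and at least 7.25-fold higher with both (adjusted p = 1.61e-07). Both exceeded CEBPA_V314VW by 2.85 ± 0.19 (adjusted p = 7.97e-07), where 2 of the 3 CEBPA_V314VW arrays were not above background. The differences of CEBPA_V314VW from empty vector (0.70, interval 0.29 to 1.11, adjusted p = 0.107) and of both from CSF3R_T618I (0.69, 0.28 to 1.10, adjusted p = 0.124) did not pass. The first passed without replicate A (adjusted p = 0.0454) or C (0.028) of CSF3R_T618I, with array weights (0.0241) and without replicate C of CSF3R_T618I and of both (0.0384). It compares levels at or below background. Il20rb had group means between 7.08 and 7.30 and was named after its values were seen.

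Il10rb encodes the shared second chain of the receptors for interleukin-10, interleukin-22 and the lambda interferons. It read 9.22, 9.27 and 9.13 with empty vector, 9.55, 9.29 and 9.44 with CEBPA_V314VW, 10.12, 10.12 and 9.80 with CSF3R_T618I and 9.86, 9.95 and 9.57 with both. The groups with CSF3R_T618I overlapped each other and lay above the others. The rise was 1.75-fold with CSF3R_T618I (0.81 ± 0.13, adjusted p = 0.00177) and 1.50-fold with both (0.59 ± 0.13, adjusted p = 0.0175). The second rise did not pass without empty vector replicate A (adjusted p = 0.0624) or C (0.0757), or without replicate A (0.0757) or B (0.0718) with both. CEBPA_V314VW differed from empty vector by 0.22 (interval -0.07 to 0.50, adjusted p = 0.718).

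Il10ra, the ligand-binding chain for interleukin-10, stayed near background in every group, with values from 4.88 to 5.77. The mean was lowest with CEBPA_V314VW (5.02), then 5.21 with empty vector and 5.45 with CSF3R_T618I, and highest with both (5.62). The difference between both and CEBPA_V314VW was called (0.59 ± 0.15, adjusted p = 0.0281). It was lost without replicate A (adjusted p = 0.11) or C (0.118) of CEBPA_V314VW, or without replicate A (0.117) or C (0.074) with both. It was also lost in a fit of those groups alone (0.0507).

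When the single mutants were set against each other, Il4ra, Il7r, Il10rb, Il13ra1 and Il20ra were higher with CSF3R_T618I and Il6st and Il31ra higher with CEBPA_V314VW. In that comparison 5.42% of all gene probe sets were called higher and 5.27% lower with CSF3R_T618I. The changes were 2.42 for Il4ra, 2.16 for Il20ra, 2.01 for Il13ra1, 1.83 for Il7r and 0.59 for Il10rb, each on the log2 scale. Those of Il20ra and Il13ra1 were measured from a CEBPA_V314VW group at background. The change was -1.42 for Il6st, and Il31ra was lower with CSF3R_T618I by the bound given above, at least 5.04-fold. Neither of these genes overlapped between the groups.

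An interaction term asked whether the effect of CSF3R_T618I differed with and without CEBPA_V314VW. Il31ra was the one chain past the threshold (-1.78 ± 0.31, adjusted p = 0.0319), where 0.113% of all gene probe sets were called higher and 0.212% lower. The effect of CSF3R_T618I on it was -0.53 without and -2.30 with CEBPA_V314VW. With empty vector the gene was 0.18 above the background controls, which leaves little range for a fall, and all CSF3R_T618I arrays and 2 of the 3 arrays with both were not above background, so the size of the term is not exact. The call did not hold when any of 9 arrays was left out, namely empty vector A, B or C, CSF3R_T618I B or C, CEBPA_V314VW A or C, and A or B with both (adjusted p from 0.0627 to 0.104, change from -1.85 to -1.55). The term was -0.20 for Il4ra (interval -0.49 to 0.09) and -0.58 for Il7r (-1.26 to 0.10), neither past the threshold. For Il7r, empty vector and CEBPA_V314VW lay 0.20 and 0.44 above the background controls, so the size of its term is not exact. Il13ra1 and Il20ra did not pass either, but their empty vector and CEBPA_V314VW groups were at or below background, so their terms do not compare the effects of CSF3R_T618I. For Il6st the term was -0.39 (-0.68 to -0.11, adjusted p = 0.59), for Il10rb -0.44 (-0.84 to -0.04, adjusted p = 0.767) and for Il6ra -0.32 (-0.73 to 0.08, adjusted p = 0.973). For Il10ra, which was near background in every group, it was 0.36 (-0.10 to 0.81, adjusted p = 0.979).

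**Figure D3:**
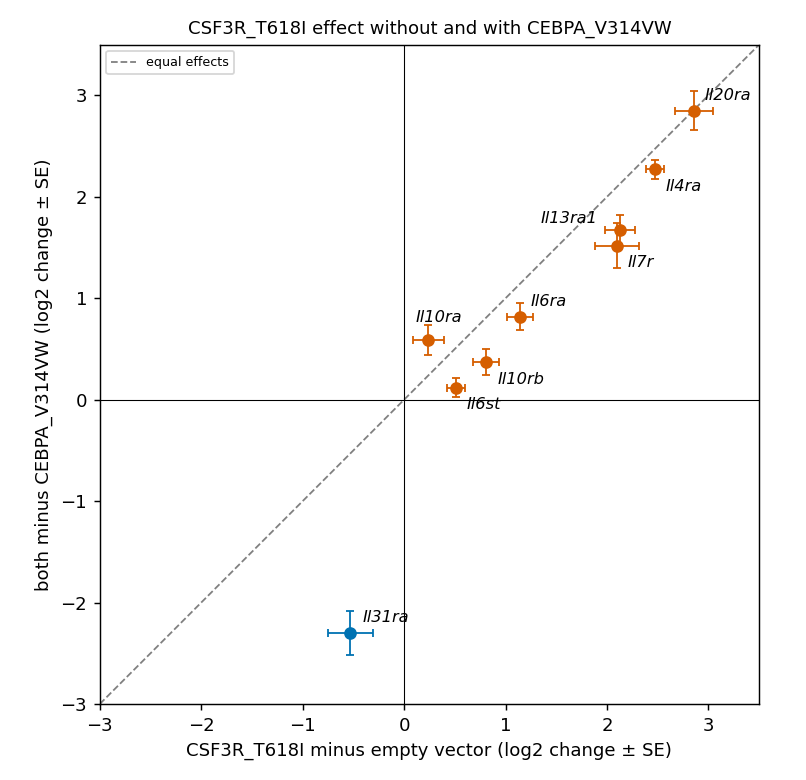
Effect of CSF3R_T618I on each chain without CEBPA_V314VW (horizontal axis, against empty vector) and with it (vertical axis, against CEBPA_V314VW alone), as log2 change ± SE with 3 arrays per group. Il4ra (2.47 and 2.27) lay close to the line of equal effects and Il31ra (-0.53 and -2.30) far below it. The positions of Il7r, Il10ra, Il13ra1, Il20ra and Il31ra rest on groups near, at or below background and are not exact.

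The promoters of Il7r, Il20ra and Il31ra are shown because they held letters of a STAT or C/EBP motif, and because each of these genes differed between the single mutants. RefSeq promoters of build GRCm38.p6, from 250 bases before to 50 after each gene's start, were at hand for 8 of the 10 genes. Both strands were searched for TTCNNNGAA, for TTC and GAA with 4 bases between, and for TTGCNNAA, the first 2 reading the same on either strand. They occur in 8.30%, 6.95% and 10.8% of 32851 promoters. Il7r lies on chromosome 15 (chr15:9529827-9530126, minus strand), Il20ra on chromosome 10 (chr10:19712337-19712636, plus strand) and Il31ra on chromosome 13 (chr13:112580613-112580912, minus strand). Matches are in capitals.
Il7r: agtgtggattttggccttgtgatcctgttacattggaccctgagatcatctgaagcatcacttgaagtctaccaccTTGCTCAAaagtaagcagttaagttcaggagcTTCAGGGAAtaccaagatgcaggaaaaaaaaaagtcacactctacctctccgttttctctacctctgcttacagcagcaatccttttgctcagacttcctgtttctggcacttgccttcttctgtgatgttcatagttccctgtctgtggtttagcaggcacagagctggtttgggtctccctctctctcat
Il20ra: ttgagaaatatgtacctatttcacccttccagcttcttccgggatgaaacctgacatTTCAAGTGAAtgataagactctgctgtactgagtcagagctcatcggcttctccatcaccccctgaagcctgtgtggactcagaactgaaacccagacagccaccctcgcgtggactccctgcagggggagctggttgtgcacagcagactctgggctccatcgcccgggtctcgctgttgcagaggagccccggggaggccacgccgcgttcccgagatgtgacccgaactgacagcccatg
Il31ra: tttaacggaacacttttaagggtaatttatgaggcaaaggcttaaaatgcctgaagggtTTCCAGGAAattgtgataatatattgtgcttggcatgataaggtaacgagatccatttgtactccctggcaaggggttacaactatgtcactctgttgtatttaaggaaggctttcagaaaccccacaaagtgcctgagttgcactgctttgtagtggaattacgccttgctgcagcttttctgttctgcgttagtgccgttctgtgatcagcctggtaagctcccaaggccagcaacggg
Il7r held a C/EBP match starting at -174 and a STAT match with 3 bases between at -142, Il20ra a STAT match with 4 bases between at -193, and Il31ra one with 3 between at -191. The windows of Il4ra, Il6ra, Il6st, Il13ra1 and Il2rg held none of these letters. Il6st (chr13:112463820-112464119, plus strand) and Il31ra lie near each other on chromosome 13.

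Partner chains, ligands and signaling genes of these receptors were taken from lists. Their counts stand beside the shares of all gene probe sets given above, 3.74% higher and 2.63% lower with CSF3R_T618I, 1.02% and 0.950% with CEBPA_V314VW, and 3.16% and 2.30% with both. Of 26 measured receptor partners, 6 rose with CSF3R_T618I and 4 with both, and 1 fell with CEBPA_V314VW, with list medians of 0.18, -0.03 and 0.02. Il21r, the interleukin-21 receptor chain that pairs with the common gamma chain, read 4.04, 3.83 and 3.89 with empty vector, not above background. It read 6.15, 5.81 and 5.43 with CSF3R_T618I and 6.87, 6.40 and 6.77 with both, at least 1.69-fold and 3.13-fold higher (adjusted p = 1.6e-05 and 7.08e-07). Osmr, the chain that pairs with Il31ra, rose by 0.89 ± 0.20 with CSF3R_T618I (adjusted p = 0.0163). With CEBPA_V314VW alone, the group in which Il31ra was high, it read 4.96, 5.63 and 5.09, near background. Csf2ra, the alpha chain for granulocyte-macrophage colony-stimulating factor, was the partner that fell with CEBPA_V314VW, by 1.26 ± 0.12 on the log2 scale (adjusted p = 7.95e-05).

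Of 21 measured ligands, 12 had a group mean above the background controls. With the oncogenes 1 rose and 1 fell with CSF3R_T618I, 1 rose with CEBPA_V314VW and 2 rose with both. Counts this small lie near the shares over all gene probe sets and are no result about the ligands as a list. Osm, which encodes oncostatin M and signals through gp130, was 3.33-fold higher with CSF3R_T618I (1.74 ± 0.20, adjusted p = 0.000115) and 2.33-fold higher with both (adjusted p = 0.00225). Il15 was 2.62-fold lower with CSF3R_T618I (-1.39 ± 0.20, adjusted p = 0.000738). Il27, whose receptor contains gp130, was 2.57-fold higher with both (adjusted p = 0.000664). Il6 read 6.98, 6.24 and 7.21 with CEBPA_V314VW and 5.38, 5.61 and 5.47 with empty vector (1.32 ± 0.30, adjusted p = 0.0424). With both it read 5.56, 5.70 and 5.49, lower than with CEBPA_V314VW (-1.23 ± 0.30, adjusted p = 0.0265). Between CEBPA_V314VW and empty vector, no ligand was called when any of 9 arrays was left out. These were empty vector A, B or C, CSF3R_T618I A, CEBPA_V314VW A or C, and A, B or C with both.

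Of 9 measured kinases and STAT factors, Jak2 (0.76 ± 0.15), Stat3 (0.56 ± 0.10) and Stat6 (0.47 ± 0.10) rose with CSF3R_T618I (adjusted p = 0.00599, 0.00414 and 0.0165), and the median of the list was 0.01. With both, only 1 of these 9 genes rose and none fell, with a list median of 0.07. Stat3 and Stat6 carry the signals of gp130 and of the interleukin-4 receptor. Of 20 feedback, adaptor and shedding genes, 6 rose and 1 fell with CSF3R_T618I, 1 rose with CEBPA_V314VW, and 4 rose and 1 fell with both. Socs3, which inhibits gp130, was 2.57-fold higher with CSF3R_T618I (1.36 ± 0.10, adjusted p = 1.99e-06) and 2.17-fold higher with both. Socs2 was 8.46-fold higher with CEBPA_V314VW (3.08 ± 0.15, adjusted p = 2.08e-07) and 3.48-fold higher with both. Adam17, whose product sheds the interleukin-6 receptor from the cell surface, fell by 0.70 ± 0.16 with CSF3R_T618I (adjusted p = 0.0176) and was named after its values were seen.

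**Figure D4:**
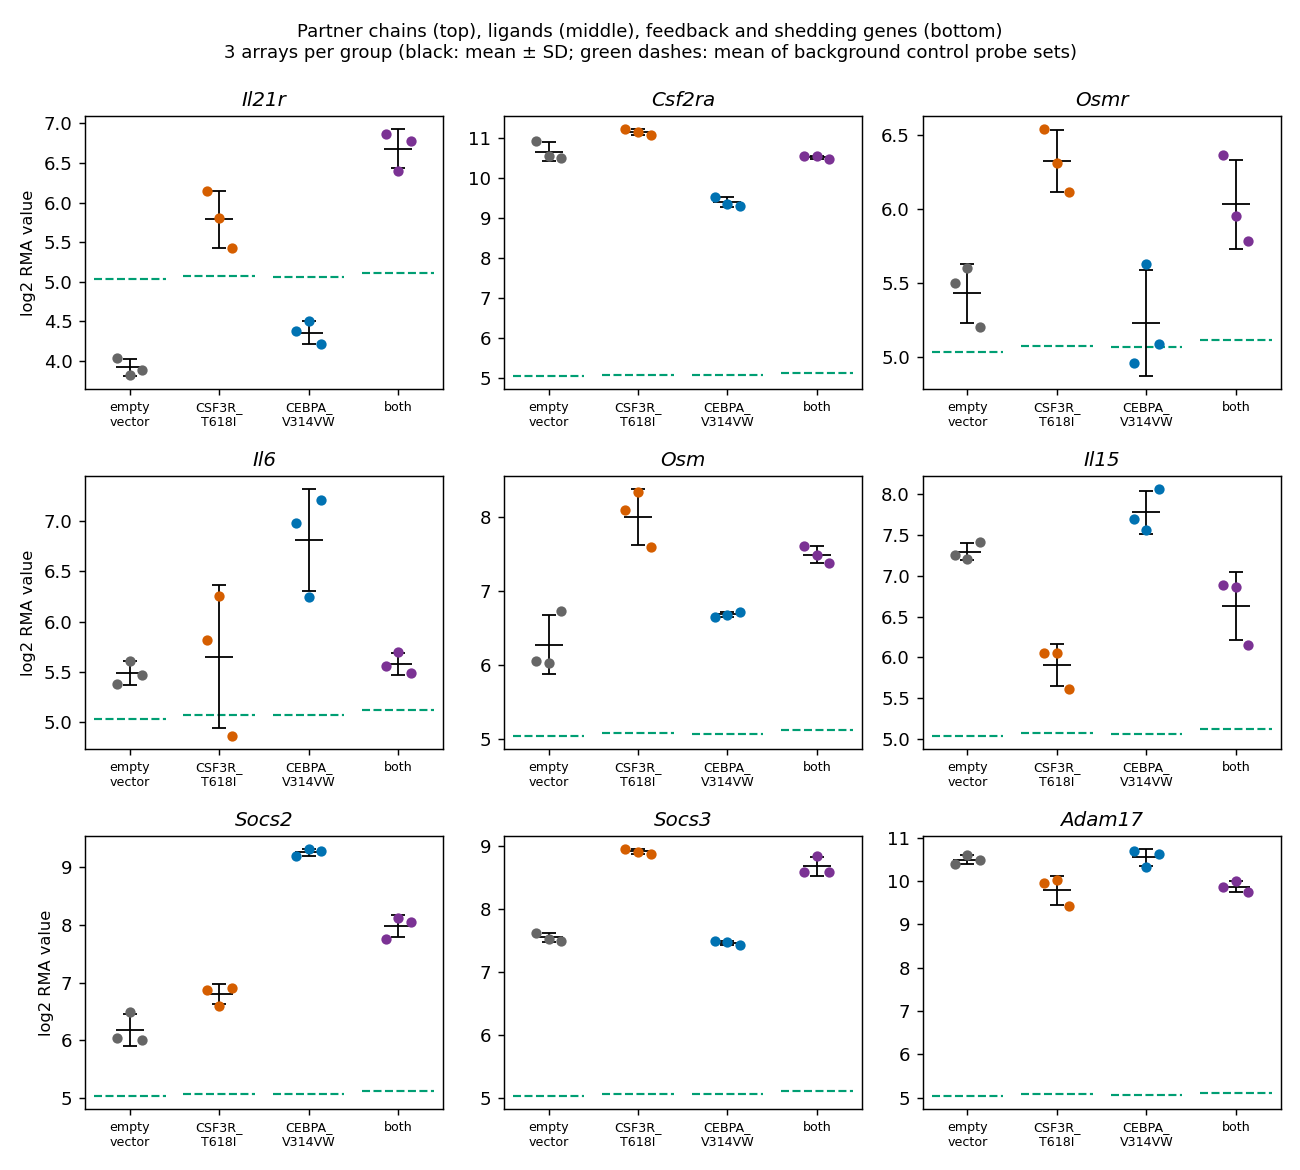
Log2 RMA value (vertical axis, scaled per gene) of partner chains, ligands, and feedback and shedding genes on the 3 arrays of each group, with mean ± SD in black and the background control mean as green dashes. Il6 had its highest group mean with CEBPA_V314VW (6.81), though 1 array with CSF3R_T618I read 6.25, and Socs3 was high in both groups with CSF3R_T618I.

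Genes that respond to these receptors were counted in the same way. Of 18 measured response genes of interleukin-4 and interleukin-13, 0 passed with CSF3R_T618I in limma, where 3 had an unadjusted p below 0.05 and up to 2 passed under the alternatives, although Il4ra and Il13ra1 rose there. With both, 2 rose, Chil3 by 3.99 ± 0.23 (15.9-fold, adjusted p = 2.61e-07) and Alox15 by 2.34 ± 0.20 (5.05-fold, adjusted p = 7.45e-06). With CEBPA_V314VW alone 1 of the 18 rose and 1 fell, with a list median of -0.05. Chil3 was the one that rose (1.36 ± 0.23, adjusted p = 0.00544). These genes were listed by their known response, and whether interleukin-4 or interleukin-13 acted on these cells was not tested. Of 18 genes that respond to STAT3, 14 rose and 1 fell with CSF3R_T618I, with a list median of 0.76. With CEBPA_V314VW 5 fell, with a median of -0.16, and with both 12 rose and 1 fell, with a median of 0.63. Lrg1, a secreted glycoprotein gene, was 4.67-fold higher with CSF3R_T618I and 3.59-fold lower with CEBPA_V314VW. Bcl3, a partner of NF-kB, was 3.22-fold higher and 2.03-fold lower. CSF3R itself also signals through STAT3, so these counts do not single out any of the 9 chains.

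Most markers of neutrophil maturation rose in the groups with CSF3R_T618I, and most fell with CEBPA_V314VW alone, where 3 chains rose and none fell. Of 14 measured, 10 rose with CSF3R_T618I, 1 rose and 11 fell with CEBPA_V314VW, and 10 rose and 3 fell with both. Their summed level, on the linear scale, was 13968 to 15288 with empty vector, 37022 to 43884 with CSF3R_T618I, 9911 to 11254 with CEBPA_V314VW and 29958 to 36687 with both. The mean log2 level of these markers was 8.59 to 8.72 with empty vector and 10.68 to 10.88 with CSF3R_T618I. It was 7.42 to 7.78 with CEBPA_V314VW and 9.89 to 10.09 with both. Mmp8, the marker that rose with CEBPA_V314VW (56.9-fold, adjusted p = 4.48e-11), and Lcn2 make up most of the sum in that group. Lcn2 was named after its values were seen. Il4ra, Il7r, Il13ra1 and Il20ra were high in the groups in which this sum was high. Il6st was high both where the sum was lowest and where it was raised. The part of maturation in the changes of these chains, Il6st among them, was not tested. Among progenitor markers 4 of 12 fell with CSF3R_T618I, and Kit was 3.19-fold lower (adjusted p = 4.6e-07).

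Because Il7r is known from lymphocytes, lymphoid markers were counted beside it. Of 12 measured T, B, NK and innate lymphoid markers, 2 fell with CSF3R_T618I, Nkg7 and Cd79b, and none rose. Their summed level was 3268 to 3550 with empty vector, 2088 to 2227 with CSF3R_T618I, 2738 to 3096 with CEBPA_V314VW and 1497 to 1717 with both. Nkg7, at 11.47 with empty vector and 10.66 with CSF3R_T618I, makes up most of this sum. The mean log2 level of the list was 5.88 to 5.97 with empty vector, 5.62 to 6.00 with CSF3R_T618I, 5.85 to 6.08 with CEBPA_V314VW and 5.71 to 5.91 with both, so that the groups overlapped on that measure. Of monocyte, macrophage and dendritic markers, 3 of 12 rose and 1 fell with CSF3R_T618I (summed level 5460 to 6075 with empty vector and 4770 to 5615 with CSF3R_T618I), with a list median of 0.00. Csf1r rose (1.33 ± 0.22, adjusted p = 0.00234) and Ly6c2 fell by 1.10 on the log2 scale (adjusted p = 0.00318). With CSF3R_T618I, mast cell, basophil and eosinophil genes (14 measured) included 1 that rose and 2 that fell, and 2 of 9 erythroid and megakaryocyte genes fell. Whether any cells of these types were present in the cultures, or added to the level of any chain, was not tested.

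The genes most like each chain over the 12 arrays were taken by Pearson correlation, as a description, since the points share 4 groups and the group means set most of the value. Il4ra was most like Saa3 (r = 0.994), Bst1 and Cd177 (both 0.992), and Il13ra1 was most like Clec5a and Csf1 (both 0.989) and Ifitm3 (0.988). Il7r was most like Zdhhc2 (0.968), Bst1 (0.965) and Slc41a1 (0.964), so that Bst1 was named beside Il4ra and Il7r alike. Il20ra was most like Mettl9 (0.993), Tarm1 (0.984) and Ifitm1 (0.983). Il6ra was most like Rgs2 (0.987), Map4k4 (0.982) and Hrh2 (0.971), and Il6st was most like Ralgapa1 (0.981), Sgk1 (0.970) and Arhgap31 (0.968). Il31ra was most like Rgs7bp (0.978), Htr1b (0.964) and Rgs8 (0.959).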

How the data were processed

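Total RNA (100 ng per sample, WT Plus labeling) from 12 cultures was hybridized to Clariom S Mouse arrays by the authors, imaged with Affymetrix Command Console version 3.1.1 and processed with RMA in Affymetrix Expression Console. The deposited values are log2 expression per probe set, normalized by the authors. The RMA settings and annotation build were not given in the sources used here. The 28846 probe sets included 6640 controls, which entered no test, and 19572 had 1 gene symbol in the annotation used and 2634 had none.

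From these values 1 linear model with a mean per group was fitted over 22206 gene probe sets and all 12 arrays with limma version 3.58.1 in R version 4.3.3 (lmFit and eBayes). It gave 6 pairwise comparisons and an interaction, each adjusted by the Benjamini-Hochberg method. The fit was tested on simulated data. Errors after ± are SE of the change. The p-values set a change against the spread between replicates, pooled over the 4 groups and moderated over all gene probe sets. "At least" folds set each array of a dim group at the higher of its value and the background control mean. Array number limits precision.

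Members and gene lists were chosen with earlier results of these data known. From 6 pathway lists, up to 3 called genes with the largest change per comparison could be named, and from 6 cell marker lists up to 2. For chains that changed by 1 or more on the log2 scale, the 3 most correlated genes were named. Alternatives were median centring, quantile normalization, a replicate block, leaving out each array, leaving out replicate C of CSF3R_T618I and of both, fitting pairs of groups alone, leaving out dim probe sets, an intensity trend, array weights, and a 2-fold change asked for beside the adjusted p.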

Additional observations from a re-analysis of the deposited data

Results flagged for a closer look

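The genes below, named in the report or its lists, differed in their response to CSF3R_T618I with and without CEBPA_V314VW, by the interaction term of the fit over all gene probe sets. Il31ra had a term of -1.78 ± 0.31 (adjusted p = 0.0319), from an effect of -0.53 without CEBPA_V314VW and -2.30 with it, and the call was lost without any of 9 arrays. All CSF3R_T618I arrays and 2 of the 3 arrays with both were not above background for this gene, so the size of its term is not exact. The term for Socs2 was -1.90 ± 0.21 (adjusted p = 0.00178), from effects of 0.61 and -1.28. For Chil3 it was 1.90 ± 0.32 (adjusted p = 0.0267) and for Alox15 1.56 ± 0.28 (adjusted p = 0.0385). Neither of these response genes of interleukin-4 and interleukin-13 passed without empty vector A, B or C, CSF3R_T618I B or C, CEBPA_V314VW A or replicate B with both, and 1 of them passed without each of the other arrays. Of the neutrophil markers, Mmp8 had -4.50 ± 0.18 (adjusted p = 8.11e-08), S100a8 1.91 ± 0.25 (adjusted p = 0.0053) and Stfa1 2.18 ± 0.18 (adjusted p = 0.000183). For Mmp8 the effects were 5.04 and 0.54. Its mean was already 12.18 under CEBPA_V314VW alone, and no value on any array was above 13.92. That range had no room for a further rise of 5.04. The Mmp8 term therefore cannot tell a differing response from the upper limit of the readings, and its size is not exact. The monocyte marker Ly6c2 had 1.67 ± 0.27 (adjusted p = 0.0227), from -1.10 without CEBPA_V314VW to 0.58 with it. Groups of 3 arrays had no formal screen for outlying samples. Replicate C of CSF3R_T618I and of both, which stood apart, were left out only in an alternative.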

How the results depend on the processing

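The counts of chains past the threshold stayed within 1.5 times under every alternative except in 2 comparisons, and no chain changed direction in a comparison where it passed the threshold under at least 1 setting. Between both and CSF3R_T618I, 1 chain was called, and 2 were with dim probe sets left out, with an intensity trend and with array weights, and 1 to 2 when single arrays were left out. For the interaction, 1 chain was called, and 0 to 1 when single arrays were left out. Of the values for single chains under the alternatives, 740 kept their side of the threshold, 10 newly passed and 26 no longer did. The 2-fold rule removed Il6st and Il10rb with CSF3R_T618I, Il6ra with CEBPA_V314VW, Il10rb with both, Il6ra and Il10ra between both and CEBPA_V314VW, and Il10rb between the single mutants. Il10rb passed between both and CEBPA_V314VW with an intensity trend (adjusted p = 0.0499) and without replicate C of CSF3R_T618I and of both (0.0241). Of the pathway list counts, 746 stayed within 1.5 times, 26 grew and 104 shrank beyond it.

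The sample labels do not say whether the letters A, B and C pair the arrays, and the residuals showed no pairing but cannot exclude it. Residuals of same-letter arrays correlated at -0.25 to 0.17 (18 pairs) and of different letters at -0.32 to 0.35 (36 pairs). With the letter as a replicate block, 7 chains were called with CSF3R_T618I and 3 with CEBPA_V314VW, as without it, and Il10ra between both and CEBPA_V314VW did not pass (adjusted p = 0.0536). Signal over background limits Il7r, Il10ra, Il13ra1, Il20ra and Il31ra, whose low groups lay within 0.7 of the background controls.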
